A study of Mus musculus with 40 samples.

Results

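Mouse lung organoids listed as ALL-FGF10 (n = 2) were compared with organoids listed as ALL (n = 2), which together make 4 of the 40 libraries of the series. The 4 were taken by their column titles from the table of factor combinations. The series profiled branching organoids grown from primary lung tip epithelium by RNA-seq, in TPM, a transcript's share of all transcripts after correction for length. Its other columns, ALL-MTG (n = 2) and ALL-VC (n = 2), were used here for the spread and as other omissions. A second table held 1 further ALL library without a replicate number and the single libraries 2C and 2C+F10, used as outside checks without a test. No group carried a stated genetic change, and the labels gave neither mouse strain, age at culture start, nor length of culture for these libraries. The labels did not define ALL, MTG, VC, 2C or F10. Reading ALL as a complete medium, a minus sign as an omission and F10 as FGF10 is an assumption. Nothing in them ties replicates to different animals or cultures, so the p-values reflect only the spread among these libraries. That spread may be partly technical, but in ALL and ALL-MTG it includes a difference in sex-linked transcripts, given below.

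FGF10 is a growth factor that the mesenchyme of the developing lung secretes next to the epithelial tips. It binds the IIIb form of the receptor FGFR2 on the epithelium, with heparan sulfate as co-receptor, and signals largely through RAS and the ERK kinases. In the embryonic lung this signal drives budding and branching, and the ETS factors ETV4 and ETV5, the Sprouty inhibitors and the phosphatase DUSP6 are known outputs of FGF and ERK signalling in epithelium.

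The libraries listed 13036 to 13983 genes at 1 TPM or more, and TPM keeps no sequencing depth. Replicates were closest in ALL-FGF10, where the median absolute difference between the pair was 0.13 on log2(TPM + 1), against 0.42 in ALL, 0.31 in ALL-MTG and 0.24 in ALL-VC. Genes whose longest transcript is 100 to 150 nt separated the groups: of 3527 in the table, 54 and 119 were above 0 TPM in the ALL-FGF10 libraries and 0 in both ALL libraries. They were also 0 in both ALL-VC libraries, 21 and 0 in ALL-MTG, and 60 to 171 in 2C, 2C+F10 and the unnumbered ALL library. This difference in listing and the omission cannot be told apart by group. The ALL pair also differed in sex-linked transcripts, with Xist at 6.04 and 147 TPM and Eif2s3y at 74.45 and 0.22 TPM. The ALL-MTG pair did as well, with Xist at 291 and 0.31 TPM and Eif2s3y at 0.13 and 79.55 TPM. Both ALL-FGF10 libraries had Xist at 0.80 and 0.22 TPM and Eif2s3y at 79.9 and 83.4 TPM. The ALL-VC pair was alike, with Xist at 0.33 and 0.13 TPM and Eif2s3y at 76.8 and 77.9 TPM. The unnumbered ALL, 2C and 2C+F10 libraries had Xist at 212, 446 and 277 TPM and Eif2s3y at 0. Over all tested genes the median difference, ALL-FGF10 minus ALL, was 0.10, and log2 differences below are given without subtracting it.

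The labelled tissue was checked against cell type markers. All 4 libraries carried the lung epithelial factor gene Nkx2-1 at 247 to 359 TPM, the epithelial adhesion genes Epcam at 189 to 279 TPM and Cdh1 at 196 to 325 TPM, and the surfactant gene Sftpc at 53158 to 97052 TPM. Markers of mesenchyme (12 genes) summed to 116 TPM in ALL replicate 1, to 5.17 in ALL replicate 2, and to 1.73 and 0.91 in ALL-FGF10. The collagen gene Col3a1 supplied 45.2 TPM of the first sum and was at 0 in both ALL-FGF10 libraries. Of 14 immune markers, 7 were at 0 and 11 under 1 TPM in all 4 libraries, among them Ptprc, the pan-leukocyte gene, Tyrobp and S100a8. The immune list still summed to 307 and 458 TPM in ALL and to 163 and 122 in ALL-FGF10, nearly all of it from Lyz2 and Cd14, which lung epithelium also expresses. The part of these other-cell transcripts in the differences below was not tested. In such bulk libraries, fewer cells of a type and less RNA per cell cannot be told apart.

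Genes of the FGF pathway were described first, from lists of 8 ligands, 12 receptors and heparan sulfate enzymes, 15 members of the relay to ERK and 20 target genes. No member of these 4 lists passed the test between ALL-FGF10 and ALL (limma, Benjamini-Hochberg adjusted p under 0.05 over all 14802 genes tested), where 1.83% of all genes did. At an unadjusted p under 0.05, the lists had 1 ligand higher, 2 receptor or enzyme genes higher, 2 relay genes higher, and 1 target gene higher with 4 lower. Of all 14802 tested genes, 2705 reached that unadjusted level in either direction.

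Among the ligands, Fgf10 itself was listed at 0.37 and 0 TPM in ALL and at 0 in both ALL-FGF10 libraries, so the organoids had almost no transcript of the factor named in the label. Fgf1, a ligand able to bind all FGF receptors, was the one ligand at substantial level, with 86.6 and 75.4 TPM in ALL and 103 and 117 TPM in ALL-FGF10. Both ALL-FGF10 values lay above both ALL values, by 0.44 (95% interval 0.10 to 0.78, adjusted p = 0.19). The ligand genes Fgf18, Fgf7, Fgf9 and Fgf20 were at 7.46 TPM or less in the 4 libraries, Fgf2 was at 0.35 or less and Fgf22 was listed at 0.

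Fgfr2, whose IIIb form is the FGF10 receptor, was at 312 and 300.5 TPM in ALL and at 336 and 315 TPM in ALL-FGF10. The ranges did not overlap, but the difference of 0.09 had a 95% interval from -0.36 to 0.54 (adjusted p = 0.83). The table gives 1 value per gene, so the IIIb and IIIc forms were not separated. Fgfr3, a related receptor gene, was at 11.8 and 7.59 TPM in ALL and 23.7 and 24.2 TPM in ALL-FGF10. Its difference of 1.25 was the widest of the 11 receptor and enzyme genes tested and did not pass (95% interval 0.49 to 2.02, adjusted p = 0.12). Ndst1, which adds sulfate to heparan chains, was at 115 and 88.7 TPM in ALL and 167 and 164 TPM in ALL-FGF10 (0.71, 95% interval 0.27 to 1.14, adjusted p = 0.12). The list had a median of 0.07, beside 0.10 for all tested genes.

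The 15 relay genes, which include the adaptor gene Frs2, had a median difference of 0.34 and ranged from -0.23 to 0.93. Sos1, an exchange factor that loads RAS with GTP, was at 8.45 and 5.04 TPM in ALL and at 13.3 TPM or more in both ALL-FGF10 libraries (0.93, adjusted p = 0.17). The ALL-FGF10 pair lay above the ALL pair for Sos1 by an amount that did not pass.

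The 20 target genes had a median of -0.07 and ranged from -2.81 to 1.19. Etv5, an ETS factor of the branching tip, was at 133 and 184 TPM in ALL and at 170 and 184 TPM in ALL-FGF10. Its 95% interval, -0.22 to 0.57, lay above a log2 difference of -1. Etv4, the related factor gene, was at 30.1 and 9.05 TPM in ALL and 18.6 and 15.9 TPM in ALL-FGF10, so the ALL values enclosed the others. Spry2, a feedback inhibitor of receptor signalling, was at 71.6 and 43.6 TPM in ALL and 85.7 and 85.1 TPM in ALL-FGF10 (0.60, 95% interval -0.02 to 1.23). Spry1 was at 52.9 and 55.6 TPM in ALL and 46.0 and 42.6 TPM in ALL-FGF10 (-0.29, 95% interval -1.28 to 0.71). The dual phosphatase gene Dusp4 was at 13.7 and 17.0 TPM in ALL and 15.9 and 14.6 TPM in ALL-FGF10. These tip and feedback genes therefore showed no call, with overlapping libraries for Etv4, Etv5 and Dusp4. Bmp4, a ligand gene of the distal tip, was at 147 and 156 TPM in ALL and 160.4 and 154 TPM in ALL-FGF10.

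A second set of target genes had both ALL-FGF10 libraries below both ALL libraries without passing the test. The set was grouped by these values, and Spry1, given above, has the same layout at a smaller difference. The pairs did not overlap, in either direction, for 53.1% of all tested genes. Dusp6, the phosphatase that inactivates ERK, was at 45.6 and 40.5 TPM in ALL and 19.5 and 22.3 TPM in ALL-FGF10 (-1.01, 95% interval -1.54 to -0.47, adjusted p = 0.088). The unnumbered ALL library had Dusp6 at 24.7 TPM, nearer to the ALL-FGF10 pair. For Egr1, Myc and Ier3, given next, that library was nearer to the ALL pair, at 228, 8.21 and 99.4 TPM. Egr1, an immediate early transcription factor gene, was at 165 and 277 TPM in ALL and 29.6 and 29.5 TPM in ALL-FGF10 (-2.81, adjusted p = 0.12). ALL-MTG replicate 1 had Egr1 at 19.7 TPM, lower still, and ALL-MTG replicate 2 had 133 TPM. With the listing of short genes, any or none, as a term the Egr1 difference was -0.12. Within groups that term varies only between these ALL-MTG replicates, so it subtracts the difference between them. Myc, a growth regulator, was at 8.48 and 9.22 TPM in ALL and 3.40 and 2.23 TPM in ALL-FGF10 (-1.38, adjusted p = 0.14). Ier3, an early gene downstream of ERK, was at 76.0 and 129 TPM in ALL and 55.2 and 50.4 TPM in ALL-FGF10 (-0.90, adjusted p = 0.13).

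**Figure D1:**
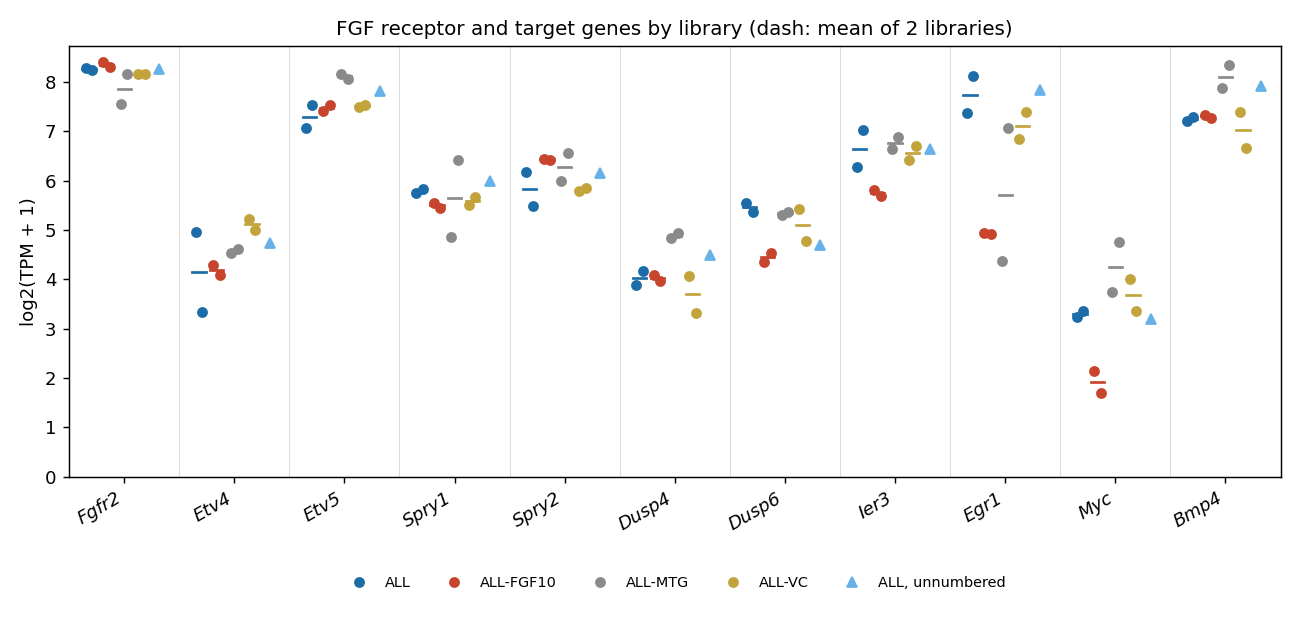
Values of Fgfr2 and 10 target genes on log2(TPM + 1) in each library of the 4 numbered groups (points, 2 per group, dash at their mean) and in the unnumbered ALL library (triangle). Etv5, Spry2 and Bmp4 of ALL-FGF10 lie at or above the level of ALL, whereas Dusp6, Egr1 and Myc lie below both ALL libraries.

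Across all genes, ALL-FGF10 differed from ALL in 271 of 14802 genes, 130 higher (0.878%) and 141 lower (0.953%). Of these, 139 were not ordinary coding genes: 125 were pseudogenes, short RNA genes and other noncoding classes and 14 were ribosomal protein genes. The other 132 calls were coding genes, of 12178 tested (1.08%), with 38 higher (0.312%) and 94 lower (0.772%). The counts moved with single libraries. Without ALL-FGF10 replicate 1 or 2 the test called 11 or 9 genes. Of the coding genes it then called 1, Cd177, and 0 (743 coding genes had an unadjusted p under 0.05 without replicate 2). Without ALL-VC replicate 1 or 2 it called 125 or 123 genes, 44 or 43 of them coding. Without ALL replicate 2 it called 145 genes, 70 of them coding, and without ALL replicate 1 it called 1149, 941 of them coding and 76.3% of all of them higher. With the listing of short genes as a term, 68 genes were called, 21 of them coding, and 3 of the 132 coding calls remained, Kng2 among them. Within groups this term varies only between the ALL-MTG replicates, which also differ in Xist (291 and 0.31 TPM) and summed mesenchymal markers (187 and 12.6 TPM). The term therefore cannot separate the listing from other differences of that pair. With Xist as a term, 125 genes were called, 48 of them coding and 26 of those among the 132.

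**Figure D2:**
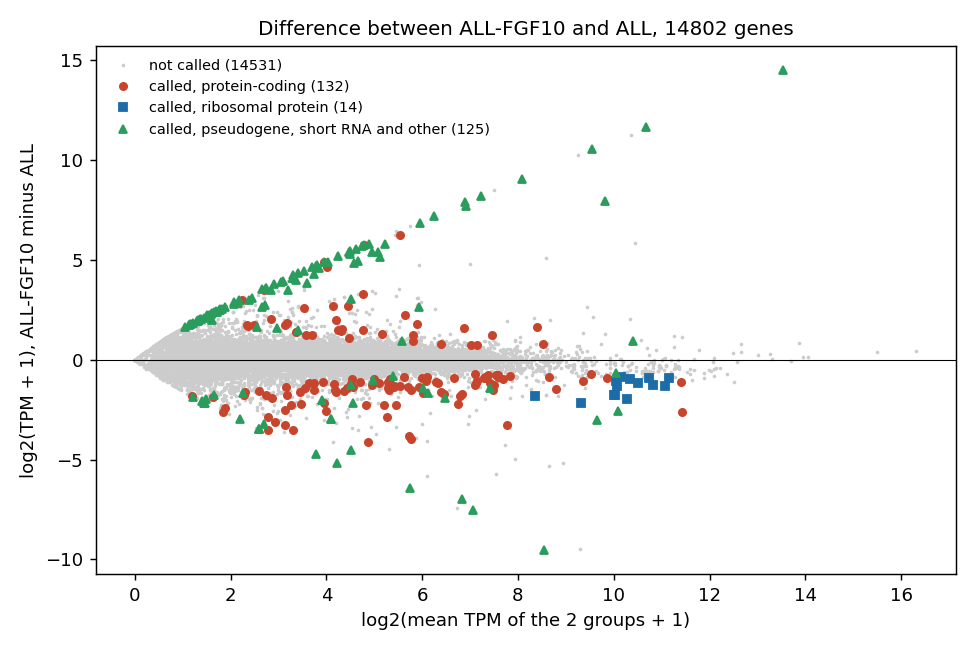
Difference of log2(TPM + 1) between ALL-FGF10 and ALL (y axis) against the log2 of the mean TPM of the 4 libraries plus 1 (x axis) for 14802 genes. Called coding genes (132) lie on both sides of 0, called ribosomal protein genes (14) lie below it, and the called pseudogenes, short RNA genes and others (125) include a line of genes listed at 0 in ALL.

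Among coding genes, falls included genes of a transitional alveolar state, a keratin-rich state known between alveolar type 2 (AT2) and type 1 (AT1) cells. Of 18 such genes, 3 fell, 0 rose and 15 did not pass. The list median was -0.90, beside 0.10 for all genes. At an unadjusted p under 0.05, 9 members were lower and 2 higher, beside 2705 of all 14802 genes in either direction. Cldn4, a claudin that seals tight junctions, was at 44.3 and 75.8 TPM in ALL and 12.4 and 10.0 TPM in ALL-FGF10. Its fall was by 2.28 (SE 0.27, adjusted p = 0.0089), and the ALL-FGF10 pair was the lowest of the 8 libraries, since ALL-VC had 77.2 and 89.4 TPM and ALL-MTG 279 and 217. The unnumbered ALL library lay inside the range of the ALL pair for Cldn4.

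Krt19, a keratin of simple epithelium, was at 92.9 and 88.2 TPM in ALL and 40.9 and 45.6 TPM in ALL-FGF10, a fall by 1.05 (SE 0.16, adjusted p = 0.031). The other 5 culture values for Krt19 in the table and the unnumbered library, 78.4 to 207 TPM, were all above the ALL-FGF10 pair. Tnfrsf12a, the receptor gene for TWEAK, was at 93.7 and 127 TPM in ALL and 48.2 and 48.5 TPM in ALL-FGF10, a fall by 1.16 (SE 0.17, adjusted p = 0.022). Here the unnumbered ALL library, at 49.3 TPM, was level with the ALL-FGF10 pair. The keratin genes Krt8 (267 and 254 TPM in ALL, 143 and 127 in ALL-FGF10) and Krt18 (264 and 369 TPM in ALL, 153 and 144 in ALL-FGF10) were lower in both libraries without passing (adjusted p = 0.064 and 0.062). Of 7 keratin genes tested, Krt19 alone passed, and of 17 claudin and tight junction genes, Cldn4 alone (list median 0.06). The cell cycle inhibitor gene Cdkn1a, also on the transitional list, went the other way without passing, from 45.5 and 36.5 TPM in ALL to 74.6 and 92.4 TPM in ALL-FGF10 (1.01, adjusted p = 0.089).

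**Figure D3:**
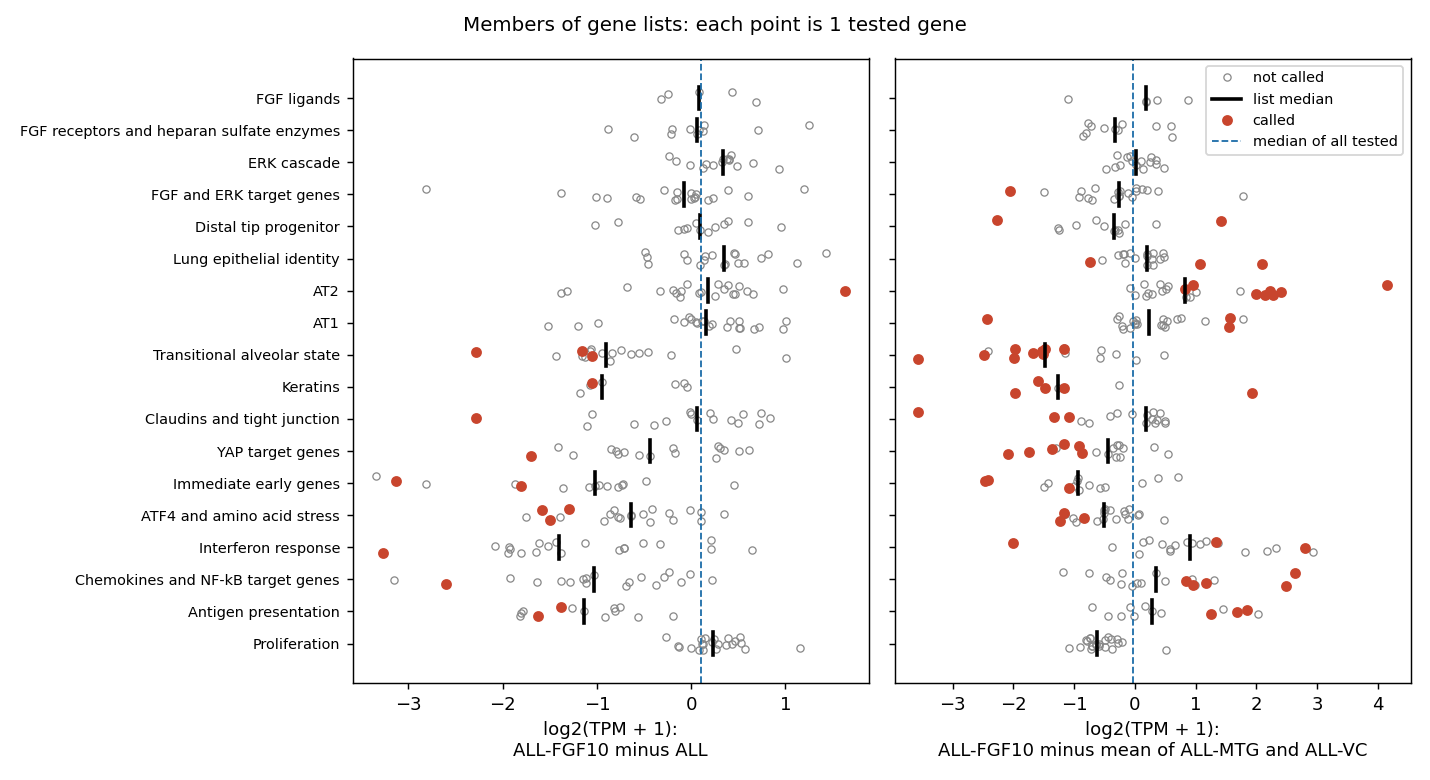
Differences of log2(TPM + 1) for the tested members of 18 gene lists, ALL-FGF10 minus ALL (left) and ALL-FGF10 minus the mean of ALL-MTG and ALL-VC (right); filled points were called, black bars are list medians and the dashed line is the median of all tested genes. The FGF lists sit near the dashed line on the left with no filled point, and the transitional list has 3 filled points below 0 on the left and 9 on the right.

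Ccn1, a matricellular gene and a standard target of the YAP and TEAD factors, was at 210.3 and 136 TPM in ALL and 48.5 and 54.1 TPM in ALL-FGF10. It fell by 1.70 (SE 0.22, adjusted p = 0.016), and the unnumbered ALL library, at 248 TPM, was above the ALL pair. Of 17 YAP target genes tested, Ccn1 was the one called, with a list median of -0.43. Ccn2, its relative, was at 56.3 and 44.8 TPM in ALL and 16.8 and 19.9 TPM in ALL-FGF10 without passing (adjusted p = 0.095). Amotl2, a feedback gene on the same list, was at 60.1 and 32.9 TPM in ALL and 40.2 and 38.6 in ALL-FGF10, within the ALL range.

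Among 15 immediate early genes, 2 fell and 0 rose (list median -1.02). At an unadjusted p under 0.05, 12 were lower and 1 higher, beside 2705 of all 14802 genes in either direction. Fosb, an AP-1 subunit, was at 19.3 and 6.26 TPM in ALL and 0.49 and 0.29 TPM in ALL-FGF10 (-3.13, adjusted p = 0.044). Junb, another AP-1 subunit, was at 139 and 206 TPM in ALL and 48.3 and 47.1 TPM in ALL-FGF10 (-1.80, adjusted p = 0.049). Junb was lower still in ALL-MTG replicate 1, at 39.2 TPM, so the ALL-FGF10 pair was not the lowest. Atf3, an ATF family factor gene, was at 21.5 and 17.5 TPM in ALL and 4.43 and 4.72 TPM in ALL-FGF10, and did not pass (adjusted p = 0.11).

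Of 21 genes of the ATF4 response to amino acid and endoplasmic reticulum stress, 3 fell, 0 rose and 18 did not pass (list median -0.64). Trib3, a pseudokinase induced by ATF4, was at 15.5 and 22.1 TPM in ALL and 5.28 and 6.67 TPM in ALL-FGF10 (-1.49, adjusted p = 0.034). Atf5, a transcription factor of the same response, was at 53.6 and 62.4 TPM in ALL and 22.7 and 23.3 TPM in ALL-FGF10 (-1.29, adjusted p = 0.028). Cebpb, a bZIP factor gene also used in inflammation, was at 21.8 and 31.9 TPM in ALL and 8.19 and 8.08 TPM in ALL-FGF10 (-1.59, adjusted p = 0.041). In the unnumbered ALL library Trib3 was at 7.13 and Cebpb at 8.74 TPM, close to the ALL-FGF10 pair, and Atf5 was at 37.8 TPM, between the groups. Sgk1, a kinase induced by glucocorticoids and serum, was at 20.0 and 28.7 TPM in ALL and 3.99 and 5.37 TPM in ALL-FGF10 (-2.15, adjusted p = 0.019). The unnumbered library had Sgk1 at 34.7 TPM, above the ALL pair, and ALL-VC had it at 8.67 and 9.51 TPM.

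Fewer coding genes rose than fell in the fit of all 8 libraries, a direction that turned without ALL replicate 1. Hc, which encodes complement C5 and is on the AT2 list, was at 137 and 192 TPM in ALL and 474 and 539 TPM in ALL-FGF10 (1.64, SE 0.24, adjusted p = 0.022). The unnumbered ALL library, at 382 TPM, lay nearer to the ALL-FGF10 pair. Kng2, a kininogen gene, was at 60.4 and 55.3 TPM in ALL and 172 and 176 TPM in ALL-FGF10 (1.58, SE 0.26, adjusted p = 0.034). Every other library had less Kng2 than the ALL pair, with 18.2 and 16.4 TPM in ALL-VC, 1.08 and 2.55 in ALL-MTG and 9.78 in the unnumbered ALL library.

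Fbp2, the muscle-type fructose bisphosphatase gene, was at 4.12 and 3.40 TPM in ALL and 28.2 and 30.7 TPM in ALL-FGF10 (2.68, SE 0.30, adjusted p = 0.0063). Bicc1, an RNA-binding regulator gene, was at 5.86 and 6.74 TPM in ALL and 27.1 and 29.9 TPM in ALL-FGF10 (2.01, SE 0.22, adjusted p = 0.0063). For both genes the ALL-FGF10 pair was far above all other libraries, and the unnumbered ALL library had 1.68 TPM of Fbp2 and 2.28 TPM of Bicc1, below the ALL pair. Atp1b1, the beta subunit gene of the sodium pump, was at 290.4 and 244 TPM in ALL and 454 and 476 TPM in ALL-FGF10 (0.80, adjusted p = 0.037). The unnumbered library had it at 309 TPM. Kcne2, a potassium channel subunit gene chosen after its values were seen, was at 15.6 and 11.0 TPM in ALL and 38.7 and 39.3 TPM in ALL-FGF10 (1.50, adjusted p = 0.042), with 19.3 TPM in the unnumbered library.

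**Figure D4:**
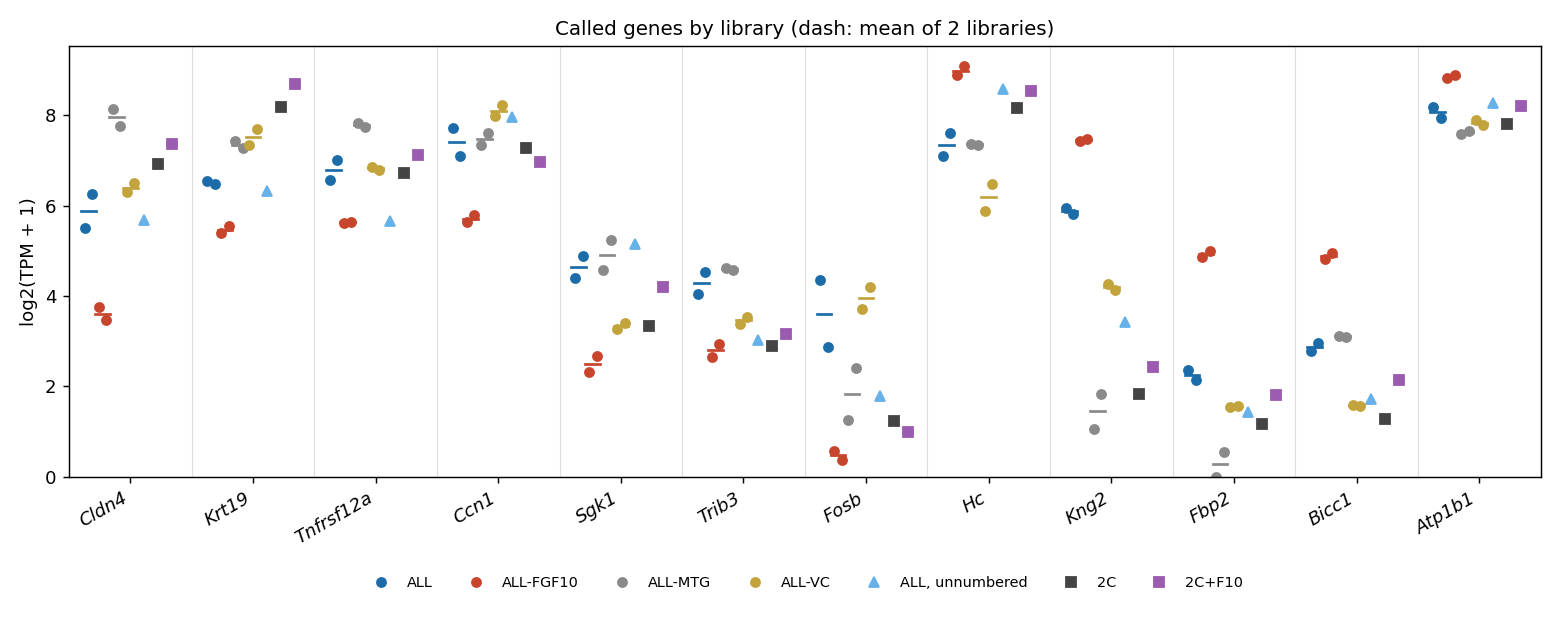
Values of 12 called genes on log2(TPM + 1) by library: 2 points and a mean dash for each numbered group, and single points for the unnumbered ALL library, 2C and 2C+F10. For Cldn4, Krt19 and Ccn1 the ALL-FGF10 pair is below every other library, for Kng2, Fbp2 and Bicc1 above every other one, and for Tnfrsf12a the unnumbered ALL library lies with the ALL-FGF10 pair.

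Lineage genes of the alveolus mostly did not pass. Of 22 AT2 genes, 1 (Hc) rose and 0 fell, with a list median of 0.18. Sftpc, the surfactant protein C gene, was at 53158 and 86843 TPM in ALL, against 90283 and 97052 TPM in ALL-FGF10 (0.46, 95% interval -0.21 to 1.13, adjusted p = 0.42). The lamellar body transporter gene Abca3 was at 309 and 342 TPM in ALL and 438 and 445 in ALL-FGF10 (adjusted p = 0.14). Of 22 AT1 genes, 0 passed, with 4 higher and 3 lower at an unadjusted p under 0.05 and a list median of 0.16. That unadjusted level was reached by 2705 of all 14802 genes, in either direction. Ager, an AT1 surface receptor gene, was at 1143 and 1059 TPM in ALL and 1154 and 1136 TPM in ALL-FGF10 (0.06, 95% interval -0.56 to 0.67). Pdpn, another AT1 membrane gene, was at 22.5 and 20.2 TPM in ALL and 6.52 and 7.07 TPM in ALL-FGF10, without passing (-1.52, adjusted p = 0.072).

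Of 13 distal tip genes tested, 0 passed, with 2 higher and 1 lower at an unadjusted p under 0.05 (list median 0.10). Sox9, the tip progenitor factor gene, was at 23.4 and 22.4 TPM in ALL and 32.7 and 28.3 TPM in ALL-FGF10 (0.39, 95% interval 0.01 to 0.78, adjusted p = 0.27). Shh, the epithelial ligand gene that signals to mesenchyme, was at 26.2 and 18.5 TPM in ALL and 41.2 and 45.8 TPM in ALL-FGF10 (0.95, adjusted p = 0.076). Wnt7b, a WNT ligand gene, was at 14.4 and 10.3 TPM in ALL and 5.98 and 5.07 TPM in ALL-FGF10 (-1.02, adjusted p = 0.12). Both pairs were apart without overlap for all of Sox9, Shh and Wnt7b, as for 53.1% of all tested genes. Of 22 proliferation genes 0 passed, 1 was higher at an unadjusted p under 0.05, and the list median was 0.23. For both lists, the number beside these unadjusted counts is 2705 of all 14802 genes, in either direction.

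A further set of called genes was higher in the ALL pair than in all other libraries of the table. Over the 132 coding calls, both ALL-FGF10 libraries lay outside the range of the other 6 libraries of the table, in either direction, in 98 (all coding genes, 21.4%). Both ALL libraries did so in 57 (all coding genes, 11.1%), and 30 of these had ALL alone outside. The ALL pair was the highest in 45 of the 57 and in 25 of the 30. Lcn2, the antimicrobial lipocalin gene, was at 3700 and 5707 TPM in ALL and 868 and 662 TPM in ALL-FGF10. It fell by 2.60 (adjusted p = 0.034), but ALL-MTG had 223 and 585 TPM and the unnumbered ALL library 25.8 TPM. Slc26a4, the anion exchanger pendrin, was at 222 and 129 TPM in ALL and 45.4 and 27.6 TPM in ALL-FGF10, with 26.4 to 36.1 TPM in the other 4 numbered libraries and 1.28 TPM in the unnumbered one. Cd14, the endotoxin co-receptor gene, fell by 1.59 from 105 and 145 TPM to 48.8 and 33.4 TPM (adjusted p = 0.042), and the other omissions and the unnumbered library had 10.4 to 36.9 TPM. For Lcn2, Slc26a4 and Cd14 the ALL pair thus lay above all other libraries, including the third one listed as ALL.

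Lists of defence genes were also lower than in ALL in their medians. Of 20 interferon response genes 1, Sp100, fell (list median -1.41), of 19 chemokine and NF-kB target genes Lcn2 fell (median -1.03), and of 13 antigen presentation genes Tap1 and H2-DMa fell (median -1.14). The interferon list summed to 922 TPM in ALL replicate 1 but to 307 in ALL replicate 2, against 254 and 347 TPM in ALL-FGF10, so its groups overlapped. Oasl2, an interferon-induced antiviral gene, was at 76.5 and 11.4 TPM in ALL and 6.21 and 15.1 TPM in ALL-FGF10, with ALL replicate 1 alone high (adjusted p = 0.35). The summed chemokine and NF-kB list was at 9904 and 14157 TPM in ALL, at 6241 and 6335 TPM in ALL-FGF10, against 2144 to 5588 TPM in the other omissions, so the ALL-FGF10 pair lay in between. Tap1, the peptide transporter gene, was at 19.3 and 11.9 TPM in ALL and 3.96 and 4.53 TPM in ALL-FGF10 (-1.62, adjusted p = 0.042), with 3.77 TPM in the unnumbered library. H2-DMa, which loads peptide on class II molecules, was at 54.7 and 65.9 TPM in ALL and 25.8 and 19.5 TPM in ALL-FGF10 (-1.38, adjusted p = 0.047), with 18.3 to 30.4 TPM in the other 5 libraries listed as ALL or as an omission.

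The unnumbered ALL library was placed, for each call, on the scale from the ALL mean to the ALL-FGF10 mean. It was on the ALL side of the midpoint for 46 of the 132 coding calls (34.8%), 25 of the 94 lower ones (26.6%) and 21 of the 38 higher ones (55.3%). It was nearer to ALL-FGF10 for the other 86. In 43 of the 132 it was on the ALL side while the ALL-FGF10 pair also lay outside the range of the other 6 libraries. Over all 12178 coding genes this held for 1761. The calls rest on the same ALL-FGF10 values, so the count of 43 is a description only. Of the genes described above, the 43 included Cldn4, Krt19, Ccn1, Sgk1, Kng2, Fbp2, Bicc1 and Atp1b1. This library stands in another table and differs from the ALL-FGF10 pair in sex-linked transcripts (Xist at 212 TPM, Eif2s3y at 0). TPM is scaled within each library, and whether levels compare directly across the tables was not tested.

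**Figure D5:**
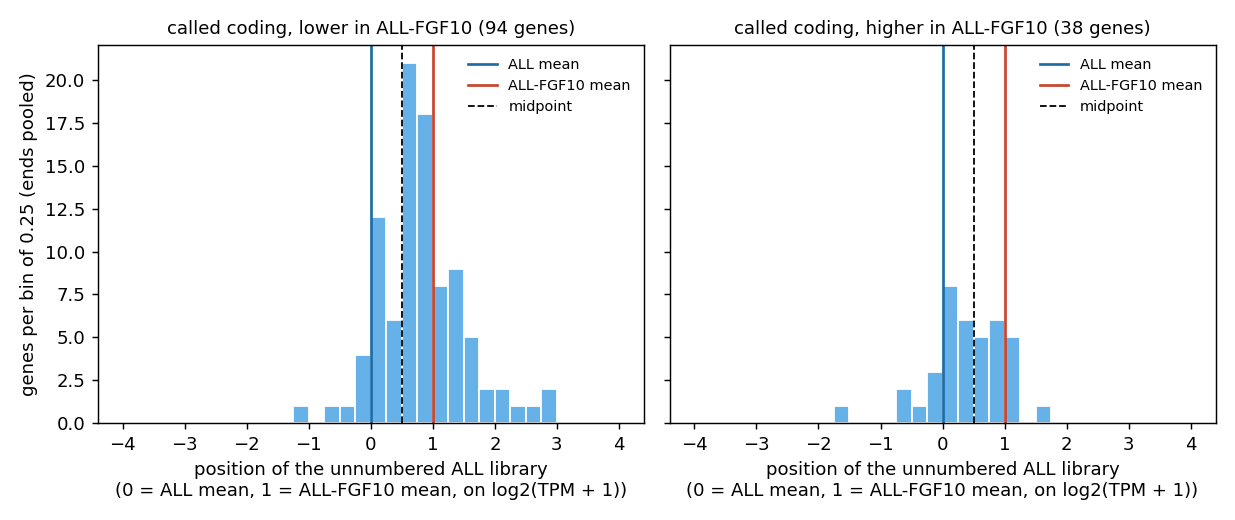
Number of coding calls by the position of the unnumbered ALL library between the ALL mean (0) and the ALL-FGF10 mean (1) on log2(TPM + 1), in bins of 0.25, for the 94 lower (left) and 38 higher (right) genes. Most lower genes lie right of the midpoint, near or past the ALL-FGF10 mean, and 25 of 94 lie left of it.

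In a second medium, 2C+F10 was set beside 2C, with 1 library each and hence no test. These libraries share none with the comparison above. Of the 94 coding genes lower in ALL-FGF10, 67 (71.3%) were higher in 2C+F10 than in 2C, as were 24 of the 38 genes higher in ALL-FGF10 (63.2%) and 6458 of all 12178 coding genes. Krt19 was at 290 TPM in 2C and 410.0 TPM in 2C+F10, Cldn4 at 120 and 163 TPM, and Tnfrsf12a at 104 and 139 TPM, so these 3 were higher with F10. Pygl, the liver glycogen phosphorylase gene, chosen after its values were seen, was at 56.8 TPM in 2C and 168 TPM in 2C+F10, and had fallen from 60.7 and 54.1 TPM in ALL to 18.5 and 20.5 TPM in ALL-FGF10 (-1.51, adjusted p = 0.021). Ccn1 was lower with F10, at 154 and 123 TPM. The target gene Etv5 was also lower with F10, at 158 and 99.8 TPM, and Dusp6 was at 11.6 and 10.7 TPM. Krt8, Krt18 and Krt19 were all higher in 2C+F10, at 655, 645 and 410.0 TPM against 460, 434 and 290 TPM. The 2C+F10 library also had more of other cells' markers: mesenchymal genes summed to 109.6 TPM against 4.29 TPM in 2C, with Col3a1 at 54.4 against 0.54 TPM, and club and goblet genes to 1576 against 541 TPM. Their part in these differences was not tested.

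A comparison of ALL-FGF10 with the mean of the other omissions does not rest on the ALL pair, although it shares the ALL-FGF10 libraries with the comparison above. The test called 716 genes (4.84%), 346 higher (2.34%) and 370 lower (2.5%). Without ALL-FGF10 replicate 1 or 2 it called 32 or 18 genes, without ALL-VC replicate 1 or 2 it called 230 or 307, without ALL replicate 1 or 2, which add to the spread only, 1100 or 1093, and with the listing of short genes as a term 224. Of the 18 transitional genes, 9 were lower and 0 higher (list median -1.48, beside -0.02 for all genes). Their sum was 7673 and 4256 TPM in ALL-MTG, 2401 and 2555 in ALL-VC, and 2268 and 2330 in ALL. ALL-FGF10 had 1331 and 1386 TPM. The mean of the other omissions was thus raised by ALL-MTG for this list, and the keratin sums were highest in ALL-MTG as well. Cldn4 was lower by 3.57 on the log2 scale (adjusted p = 3.2e-04), Krt19 by 1.97, Krt8 by 1.48 and Krt18 by 1.17. Areg, an EGF receptor ligand gene, was at 11.7 and 14.6 TPM in ALL-FGF10, against 46.7 to 106 TPM in the other omissions (-2.48, adjusted p = 0.0023). Anxa1, a phospholipid-binding gene, was at 54.6 and 58.6 TPM in ALL-FGF10, against 211 to 257 TPM in the other omissions (-1.98, adjusted p = 0.0025). Both genes had no overlap between ALL-FGF10 and the 4 other libraries.

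Against the other omissions, 1 of 20 FGF target genes was called, Myc, which was lower (12.4 and 26.1 TPM in ALL-MTG, 15.1 and 9.21 in ALL-VC; difference -2.05, adjusted p = 0.019). Among the YAP targets 6 of 17 were lower, with Ccn1 at 161 to 297 TPM in the other omissions (-2.08, adjusted p = 0.0019) and Ccn2 at 31.6 to 160.4 TPM (-1.75, adjusted p = 0.019). Of 22 AT2 genes, 8 were higher and 0 lower (list median 0.83). The phosphate transporter gene Slc34a2 was at 1767 and 2255 TPM in ALL-FGF10, against 342 to 598 TPM in the other omissions (2.14, adjusted p = 0.0053). ALL, at 1029 and 1004 TPM, lay between. Kng2 had the largest rise among genes named by the rule that are longer than 150 nt (4.64, adjusted p = 5.9e-05), and Fbp2 was higher as well, with 0 to 1.95 TPM in the other omissions (adjusted p = 3.0e-04). Of the tip genes Shh was higher (1.42, adjusted p = 0.0071) and Wnt7b lower (-2.27, adjusted p = 0.0033), with Wnt7b at 23.9 to 43.1 TPM in the other omissions. Of 19 basement membrane genes 6 were lower, among them the perlecan gene Hspg2, at 12.3 and 16.0 TPM in ALL-FGF10 and 46.5 to 56.1 TPM in the other omissions (-1.78, adjusted p = 0.0052). For Hspg2, ALL was at 15.0 and 22.7 TPM, level with ALL-FGF10.

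Ribosomal protein genes formed the other block of calls. The set of 80 was drawn up after values were seen; 14 fell (17.5%), 0 rose, and the median was -0.56. Their values summed to 146284 and 169923 TPM in ALL, 104766 and 101216 TPM in ALL-FGF10 and 120729 to 148811 TPM in the other omissions. Rps7, a small subunit gene, was at 513 and 503 TPM in ALL and 137 and 153 TPM in ALL-FGF10 (-1.81, adjusted p = 4.7e-04), with 492 to 551 TPM in the other omissions. The unnumbered ALL library had Rps7 at 198 TPM and 2C at 257 TPM, both below every numbered library other than ALL-FGF10. The 2C+F10 library had Rps7 at 142 TPM, within the range of the ALL-FGF10 pair, and 10 of the 14 called ribosomal protein genes were lower in 2C+F10 than in 2C. Rpl11, a large subunit gene, was at 1780 and 2175 TPM in ALL and 494 and 513 TPM in ALL-FGF10 (-1.96, adjusted p = 8.9e-04), and at 688 TPM in the unnumbered library.

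Some of these genes have near-identical copies, so their values are uncertain. Rpl37 was at 867 and 1222 TPM in ALL and 229 and 227 TPM in ALL-FGF10 (-2.17, adjusted p = 0.0019). Its copy Rpl37rt was at 912 and 926 TPM in ALL and 1836 and 1757 TPM in ALL-FGF10 (0.97, adjusted p = 0.043), the opposite direction. The unnumbered ALL library had the layout of ALL-FGF10, with Rpl37 at 339 and Rpl37rt at 2205 TPM. The aligned stretch of Rpl37 (gene on chromosome 15, 5116645 to 5119140, plus strand) and that of Rpl37rt (gene on chromosome 5, 115102923 to 115110268, minus strand), both from GENCODE M21 transcripts on GRCm38, are shown because they differ in 1 of 294 bases (99.7% identity), set in capitals.
Rpl37: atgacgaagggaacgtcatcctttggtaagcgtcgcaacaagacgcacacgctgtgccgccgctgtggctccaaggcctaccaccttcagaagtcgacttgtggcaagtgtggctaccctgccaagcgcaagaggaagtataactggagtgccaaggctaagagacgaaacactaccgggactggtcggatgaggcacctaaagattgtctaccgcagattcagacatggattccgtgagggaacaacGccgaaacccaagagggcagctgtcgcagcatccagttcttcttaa
Rpl37rt: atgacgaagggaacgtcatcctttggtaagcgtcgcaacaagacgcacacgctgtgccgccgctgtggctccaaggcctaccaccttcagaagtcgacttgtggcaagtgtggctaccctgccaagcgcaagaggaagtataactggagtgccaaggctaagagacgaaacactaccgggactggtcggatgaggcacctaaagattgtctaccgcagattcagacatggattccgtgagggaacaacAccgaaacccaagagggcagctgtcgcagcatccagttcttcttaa
The stretch is bases 38 to 331 of the Rpl37 transcript, which is 835 nt long. A read that lies within the stretch and does not cover the differing base fits both genes. Rps12l1, a processed copy on chromosome 7, had 447 and 637 TPM in ALL-FGF10, 0 in the other 6 libraries and 131 TPM in the unnumbered ALL library, and it matches the Rps12 transcript over 399 bases with 0 differences. Rps12 itself was at 140.2 and 185 TPM in ALL and 176 and 142 TPM in ALL-FGF10. Processed pseudogenes as a class had 58 of 791 higher (7.33%) and 14 lower (1.77%), and 19 of the 130 higher calls had a longest transcript of 150 nt or less, against 0 of the 141 lower calls. Snhg9, Mir546, Mir6236, Mir8097 and Mir1957b, all called higher, were listed at 0 in the other 6 libraries and above 0 in the unnumbered ALL library.

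Promoters of called genes were read for short motifs of factors that act in the pathways above. The sequence is the 250 bases before the RefSeq start on GRCm38.p6, on the gene's strand, searched on both strands. Cldn4 is shown for its 2 AP-1 motifs, TGANTCA, the first of which begins 240 bases before the start (chr5:134946935-134947184). Ccn1 is shown for 1 TEAD motif, GGAATG, whose reverse complement begins 103 bases before the start (chr3:145649986-145650235). Tnfrsf12a is shown for 1 ETS motif, CCGGAAG, which begins 61 bases before the start (chr17:23677450-23677699). All 3 genes are on the minus strand, and capitals mark the motifs.
Cldn4: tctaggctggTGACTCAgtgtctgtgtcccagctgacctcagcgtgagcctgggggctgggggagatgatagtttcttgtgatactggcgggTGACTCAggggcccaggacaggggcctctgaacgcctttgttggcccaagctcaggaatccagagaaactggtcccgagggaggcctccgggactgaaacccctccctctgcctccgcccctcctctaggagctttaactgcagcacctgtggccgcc
Ccn1: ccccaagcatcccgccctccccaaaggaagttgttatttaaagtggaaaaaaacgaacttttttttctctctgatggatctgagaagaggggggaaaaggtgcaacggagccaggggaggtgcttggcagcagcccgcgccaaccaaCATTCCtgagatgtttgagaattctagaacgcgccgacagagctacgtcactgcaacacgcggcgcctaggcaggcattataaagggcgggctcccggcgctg
Tnfrsf12a: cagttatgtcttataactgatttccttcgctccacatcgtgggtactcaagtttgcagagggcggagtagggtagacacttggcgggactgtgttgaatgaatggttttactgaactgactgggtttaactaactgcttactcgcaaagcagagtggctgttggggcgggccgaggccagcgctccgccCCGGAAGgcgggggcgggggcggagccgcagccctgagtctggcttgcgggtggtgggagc
A match is a description of letters and not a binding site. Promoters of the called genes Fosb, Trib3, Hc and Kng2, and of Dusp6, which was not called, were read in the same way. Each held 0 AP-1, 0 TEAD and 0 ETS motifs, and 0 of the cyclic AMP response element given next. Of the 94 lower coding genes, 77 had a promoter in the table, and 9 of these held the AP-1 motif (11.7%; 6.75% of all 32851 promoters), 12 the TEAD motif (15.6%; 12.6% of all) and 8 the ETS motif (10.4%; 6.91% of all). The cyclic AMP response element TGACGTCA was in 1 of the 77 (1.3%; 1.55% of all). Of the 38 higher coding genes, 27 had a promoter, of which 4 held the AP-1 motif, 2 the TEAD motif, 2 the ETS motif and 0 the cyclic AMP element. A called gene was counted if any of its promoters held the motif, whereas the share of all was counted per promoter. The shares are thus of unlike units, and these counts were not tested.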

How the data were processed

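Of 40 libraries, the 8 numbered libraries of the table of factor combinations (2 each of 4 groups) entered the fit. RNA was TRIzol-extracted and libraries were made with a Vazyme mRNA-seq kit, per the labels' protocols. The authors deposited TPM tables, made with RSEM and Bowtie2 on mm10 per the submitters' processing notes; versions, strandedness and annotation are not given in the sources used here. Counts were not used, so depth, and the precision it gives, is unknown. 1 column without a sample was left out. All 55260 symbols matched GENCODE M21, used for coordinates and classes.

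Genes with at least 1 TPM in 2 libraries were fitted as log2(TPM + 1) with limma 3.58.1 (R 4.3.3; eBayes with trend, no covariate, two-sided) with Benjamini-Hochberg adjustment over all 14802, and called at adjusted p under 0.05. This scale understates changes of low genes. The fit was tested on simulated data. Sequences were handled in Python 3.11.15 with Biopython 1.88, figures with matplotlib 3.10.9.

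The members and the 40 gene lists (591 genes, 3 absent from the table) were chosen with earlier results of these data known. Named genes were the 12 largest rises and 12 largest falls with mean TPM of at least 5 and groups without overlap, without predicted, clone, pseudogene or mitochondrial genes; the 8 largest each way against the other omissions; called list members; and all FGF ligand, receptor and target genes. This gave 143 genes; the text also names members of the lists as examples, and ribosomal protein genes, chosen after their values were seen. Alternatives changed the pseudocount, filter, scaling, groups fitted, block, trend, extra terms and single libraries.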

Additional observations from a re-analysis of the deposited data

How the results depend on the processing

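For ALL-FGF10 against ALL, the 271 calls became 177 with a pseudocount of 0.1 TPM and 166 with only the groups compared. They became 68 with the listing of short genes as a term, fitted as any or none and set by the ALL-MTG pair. They became 125 with Xist as a term and 159 over rescaled coding genes, a setting chosen after seeing the data. The 132 coding calls became 85 without a filter, 58 with only the groups compared, 84 without the variance trend, 21 with the short-gene term and 48 with Xist. Against the other omissions, the 716 calls became 1106 with only those groups and 224 with the short-gene term. Leaving out 1 library at a time gave 9 to 1149, 0 to 941 and 18 to 1100 calls for these results in turn. The share of higher calls against ALL went from 48.0% to 69.3% without a filter, to 65.4% without the trend and to 57.8% with only the groups compared. With a replicate block the counts were 143 against ALL, 59 of coding genes and 575 against the other omissions. Deviations of same-numbered replicates correlated at -0.07 to 0.11 across groups, so the numbers were not taken to pair the samples. No called gene named here changed direction. Of the alternative values of named genes, 4793 stayed on their side of the threshold, 760 lost a call and 100 gained one. Cd177 kept its call in 18 of 20 alternatives, Bicc1 in 17, Cldn4, Ccn1 and Fbp2 in 16, Hc in 15, Sgk1 in 14, Krt19, Tnfrsf12a and Trib3 in 12 and Kng2, Fosb, Atf5, Atp1b1, Lcn2 and Sp100 in 10. Tap1 kept it in 9, Junb, Cd14 and H2-DMa in 8 and Cebpb in 7, so these 5 lost it in most. The cause of these changes was not tested. The placement of the unnumbered library (46 or 47 genes) and the share higher in 2C+F10 (71.3 or 74.3%) moved little.

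The limits are 2 libraries a group, unknown depth, ALL-FGF10 libraries that differ from ALL in the listing of short genes, and an ALL pair that stands apart from the third ALL library.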
